A study of Mus musculus with 18 samples.

Results

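The comparison described here sets NKG2D-stimulated against freshly sorted natural killer (NK) cells that had lost Acly, the gene of ATP-citrate lyase. It spans the whole culture: fresh cells were primed with interleukin-15 (IL-15), washed and then stimulated, so the net change is the sum of a priming step and a stimulation step. Its members are 6 of the 18 libraries of the series, the 3 fresh and the 3 stimulated knock-out libraries, and the 3 primed knock-out libraries show which genes moved out and came back. All cells were YFP-positive splenic NK cells of mice. The control mice carried a tamoxifen-inducible Cre (CRE-ERT2) expressed from Ncr1 and the YFP reporter (Rosa YFP/YFP), and the knock-out mice carried in addition Acly fl/fl. Both genotypes were given tamoxifen in the diet for 48 hours and their cells were sorted 5 days after it was withdrawn. Priming was 72 hours of IL-15 at 100 ng/ml, and stimulation was 6 hours on plate-bound NKG2D reagent at 20 ug/ml after a wash. The sort selects cells in which Cre was active on the reporter, which does not by itself show deletion of both Acly alleles in each cell. Ages of the mice are not in the labels. Cells that were primed, washed and left without the reagent are not among the groups, so NKG2D, the wash and 6 further hours cannot be told apart.

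NK cells kill infected or transformed cells with perforin and granzymes and release interferon gamma and chemokines. IL-15 drives their survival, growth and granzyme synthesis. NKG2D, encoded by Klrk1, is an activating receptor that signals through the adaptor DAP10, encoded by Hcst. ATP-citrate lyase turns citrate into cytosolic acetyl-CoA, the building block of fatty acids and cholesterol and a donor for histone acetylation. Myc and the ribosome biogenesis genes are among the growth genes that cytokines induce in lymphocytes, and Klf2 is a transcription factor of resting lymphocytes that maintains the expression of the egress receptor gene S1pr1.

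The knock-out libraries held 14.8M to 33.8M reads assigned to genes, and the smallest was primed replicate 1, with 14695 genes detected where the other 8 held at least 18190. All levels below are CPM, read counts relative to the library total scaled by TMM factors, and are compared only between libraries for 1 gene. The labels do not name the mice behind the replicates. In each condition knock-out replicate 2 had the female and replicates 1 and 3 the male pattern of sex-linked genes, so replicate 2 is not a technical repeat of the others, while whether replicates 1 and 3 come from separate mice is not shown. The p-values measure only the spread among these libraries, part of which may be technical. Acly itself (GRCm38, chromosome 11, 100476353 to 100528000) was at 16.0, 15.3 and 25.5 CPM in fresh, 41.4, 38.1 and 48.9 in primed and 39.0, 28.2 and 41.9 in stimulated knock-out cells. These means were 7.56%, 16.7% and 22.2% of the wild-type means. Residual Acly thus was higher in stimulated than in fresh cells, with a log2 change of 0.94 (SE 0.20, adjusted p = 0.0009), while it changed by -0.61 in wild type, and the difference of 1.54 passed the test (adjusted p = 0.00140). Whether a larger share of cells with intact Acly or more transcript per cell gives that rise was not tested, and in bulk RNA the 2 cannot be told apart.

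The cells kept the defining NK transcripts, but at lower levels: the summed CPM of 12 NK markers was 27424 to 32494 in fresh and 9287 to 10807 in stimulated knock-out libraries, and all 12 fell. After stimulation the haemoglobin genes reached at most 0.0815 CPM, Lyz2 was at 0 and Igkc reached at most 0.0408 CPM. The summed myeloid markers were at 252 to 326 CPM in fresh and 114 to 143 CPM in stimulated libraries. Dendritic cell markers were at 428 to 522 against 319 to 444 CPM, mostly Itgax. T cell markers were at 630 to 755 against 596 to 739 CPM, mostly Trbc1, Trbc2 and Cd28. Of 9 tested dendritic cell markers 5 were called lower and 2 higher, and of 10 tested T cell markers also 5 and 2. Sums were higher for B cell markers (300 to 340 against 447 to 627 CPM), which was mostly Ighm, for the erythroid list (924 to 1041 against 4465 to 5061 CPM), which was nearly all Car2, for stroma (66.0 to 88.7 against 122 to 156 CPM), which was Pecam1, and for markers of type 1 innate lymphoid cells (ILC1; 227 to 271 against 451 to 485 CPM), led by Itga1 and Cxcr6. Of the 9 ILC1 markers only 3 were called higher, 1 was called lower and 5 were not called. Trdc, 1 of the 9, went from 103, 96.7 and 125 CPM in fresh to 60.1, 58.9 and 76.8 in stimulated libraries. The part of other cells in the changes below was not tested. A list of heat shock and dissociation genes summed to 4319 to 4727 CPM in fresh and 5888 to 6941 CPM in stimulated libraries. The higher sum was not shared by most members: of 10 tested 3 were called higher and 2 lower, with a median of -0.08. Among all genes 20.6% were higher and 20.0% lower. Hsp90ab1 and Hspa8 were among the 3, and the 2 were Dnajb1 and Hspa1a. Without fresh replicate 3 the count lower was 1.

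Of 14864 genes tested, 3068 (20.6%) were higher and 2978 (20.0%) lower in stimulated than in fresh knock-out cells at an adjusted p of 0.05, and 1718 and 1352 of these changed at least 2-fold (11.6% and 9.10%). The median log2 change over all tested genes was -0.03, and in 54.8% of genes the 3 stimulated libraries lay wholly on 1 side of the 3 fresh ones. For 4803 genes (32.3%) the change was not called and its 90% interval lay inside a 2-fold change either way. By group, the highest shares of members called higher were in cholesterol synthesis (23 of 26), cell cycle (39 of 45) and BCL2 family and p53 targets (17 of 24). The survival genes Bcl2, which is in the IL-15 and STAT5 list, and Bcl2l1 fell. The pathway lists with the highest shares of members called lower were those of early activation (33 of 48), NK receptors (31 of 47), egress (15 of 24), granules (16 of 28), ribosome biogenesis (19 of 35), IL-15 and STAT5 signalling (18 of 34) and NK transcription factors (18 of 34), as the bars of called members show.

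**Figure D1:**
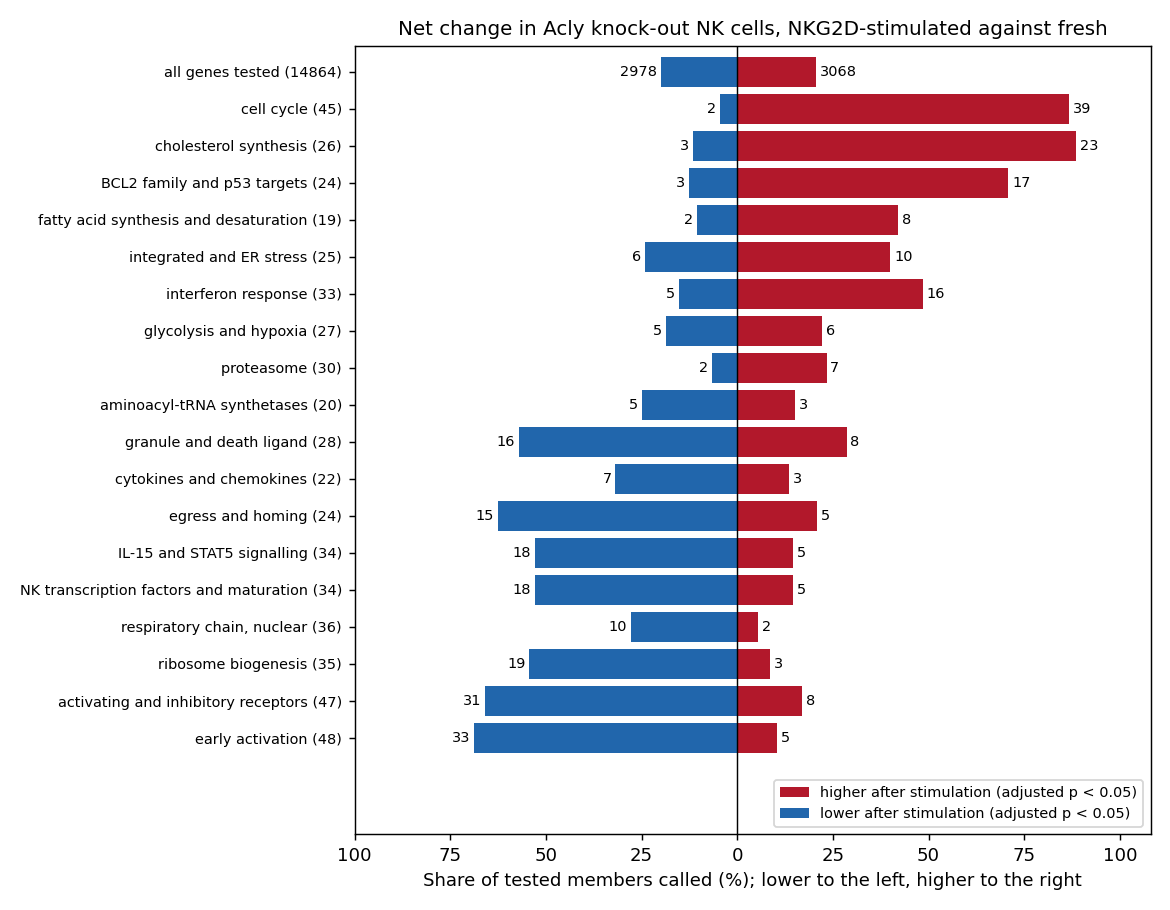
Share of the tested members of each gene list called higher (right, red) or lower (left, blue) in stimulated against fresh knock-out cells, with the number of members beside each bar and the number tested in brackets. Among all 14864 genes 3068 were higher and 2978 lower, while the cell cycle list had 39 higher and 2 lower of 45 and the early activation list 5 higher and 33 lower of 48.

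The largest rises included secreted and surface proteins that were scarce in fresh cells. Ccl1, a chemokine gene, had 2 reads in all in the fresh knock-out libraries and 364, 294 and 175 CPM in the stimulated ones. The ratio of the summed counts was 10270 with a 95% counting interval from 2841 to 84770, which covers counting error only. Ifitm1, an interferon-induced membrane protein gene, went from 0.272, 0.0999 and 0.279 CPM to 92.1, 62.2 and 78.5, and the receptor gene Gpr141 from 0.227, 0.200 and 0 CPM to 28.3, 25.0 and 35.3. Spp1, which encodes osteopontin, was at 6.44, 12.5 and 4.34 CPM in fresh, 1591, 1979 and 1907 in primed and 733, 739 and 543 in stimulated cells. It rose by 6.46 net (SE 0.31, adjusted p = 1.9e-11) and fell by 1.44 in the stimulation step. Ifitm1 and Gpr141 had risen in primed cells by 8.03 and 7.96, and their stimulation steps of 0.35 and -0.12 were not called. Ccl1 rose further in the stimulation step, by 2.93 (adjusted p = 4.2e-08).

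The largest falls included immediate-early genes, which encode transcription factors and phosphatases switched on within minutes of a stimulus. Fos was at 1319, 1340.4 and 1551 CPM in fresh cells, 53.8, 76.8 and 118 in primed cells and 1.51, 1.17 and 0.938 in stimulated cells, a net change of -10.18 (SE 0.34, adjusted p = 6.9e-13). Dusp1, a MAP kinase phosphatase gene, changed by -6.37 (SE 0.20, adjusted p = 5e-13), from 199.8, 238 and 272 CPM to 2.85, 2.53 and 3.18. Jun changed by -5.22 and Nr4a1, a target of antigen and NK receptor signals, by -4.94. Both steps contributed for Fos, Dusp1 and Jun, while for Nr4a1 the stimulation step of -0.65 was not called (adjusted p = 0.0756). In the whole early activation list 33 of 48 tested members fell and 5 rose (median -2.47), beside 20.0% and 20.6% of all genes. Those that rose included Egr2, at 12.5, 12.6 and 12.8 CPM in fresh and 101, 84.2 and 75.3 in stimulated cells, and Crtam, an adhesion receptor gene, at 48.3, 33.5 and 44.9 against 282, 261 and 200.0 CPM. Several genes of this list are also known to be induced by tissue handling, and the part of cell isolation in their level in fresh cells was not tested.

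Activation markers at the cell surface went in different directions. Cd69, an early activation antigen, fell from 394, 489 and 525 CPM in fresh to 233, 255 and 339 in primed and 45.1, 54.2 and 53.6 in stimulated cells (net -3.20, SE 0.16, adjusted p = 4.4e-11). No stimulated library reached the lowest fresh one. Tnfrsf9, which encodes the costimulatory receptor 4-1BB, was at 194, 212 and 165 CPM in fresh, 598, 648 and 790.1 in primed and 466, 351 and 297 in stimulated cells, so that part of its priming rise was lost again (net 0.96, adjusted p = 0.00051).

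Cytotoxic effector genes ended mostly below the fresh level. Prf1, encoding perforin, was at 2553, 3438 and 2593 CPM in fresh, 1146, 1432 and 1533 in primed and 377, 258 and 239.9 in stimulated cells, and fell by 3.29 (SE 0.21, adjusted p = 8.2e-10). Gzmb, encoding granzyme B, climbed from 889, 1373 and 1048 CPM to 7891, 9579 and 11673 in primed cells and dropped to 683, 498 and 514 after stimulation. Its mean rose 8.80-fold in priming, and its net change was -0.97 (SE 0.22, adjusted p = 0.00159), so that all 3 stimulated libraries lay below all fresh ones. Fasl, the death ligand gene, changed by -2.30 and Cma1, the mast cell chymase gene, by -4.68. Gzmk rose in both steps, from 12.3, 10.1 and 13.7 CPM to 84.5, 90.7 and 84.4 (net 2.84, adjusted p = 5.3e-08), and Gzmc rose from 3.36, 3.90 and 1.89 CPM to 236, 170.0 and 180.3. Of 28 tested genes of granules and death ligands, 16 were called lower and 8 higher, with a median of -0.52, beside 20.0% and 20.6% of all genes. The granzyme genes of the Gzmc cluster are near copies of each other, and how the authors divided shared reads among them is not known.

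Of 22 cytokine and chemokine genes 7 fell, 3 rose and 12 were not called, beside 20.0% lower and 20.6% higher among all genes. Ifng, encoding interferon gamma, was at 558, 621 and 576 CPM in fresh, 72.5, 67.1 and 70.8 in primed and 20.6, 20.1 and 15.5 in stimulated cells, a 31.2-fold lower mean (net -4.96, SE 0.17, adjusted p = 6.9e-13). The 3 groups do not overlap. Ccl3 changed by -4.52, from 674, 966 and 842 CPM to 43.2, 36.2 and 29.1, and Ccl4 by -3.48, from 2564, 3597 and 2892 CPM to 319, 286 and 204. Ccl5 fell in priming, from 19522, 20052 and 20834 CPM to 3199, 4325 and 3233, and stood at 4392, 5081 and 3336 CPM after stimulation (step 0.25, adjusted p = 0.194). Xcl1, which attracts cross-presenting dendritic cells, rose from 451, 340.1 and 398 CPM to 776, 641 and 463 (net 0.66, adjusted p = 0.00555), with the lowest stimulated library just above the highest fresh one. Csf2 and Tnf were low, at no more than 4.85 and 2.98 CPM in any of the 6 libraries, and their net changes of -1.02 (95% interval -2.04 to 0.00) and -0.57 (-1.50 to 0.36) were not called.

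**Figure D2:**
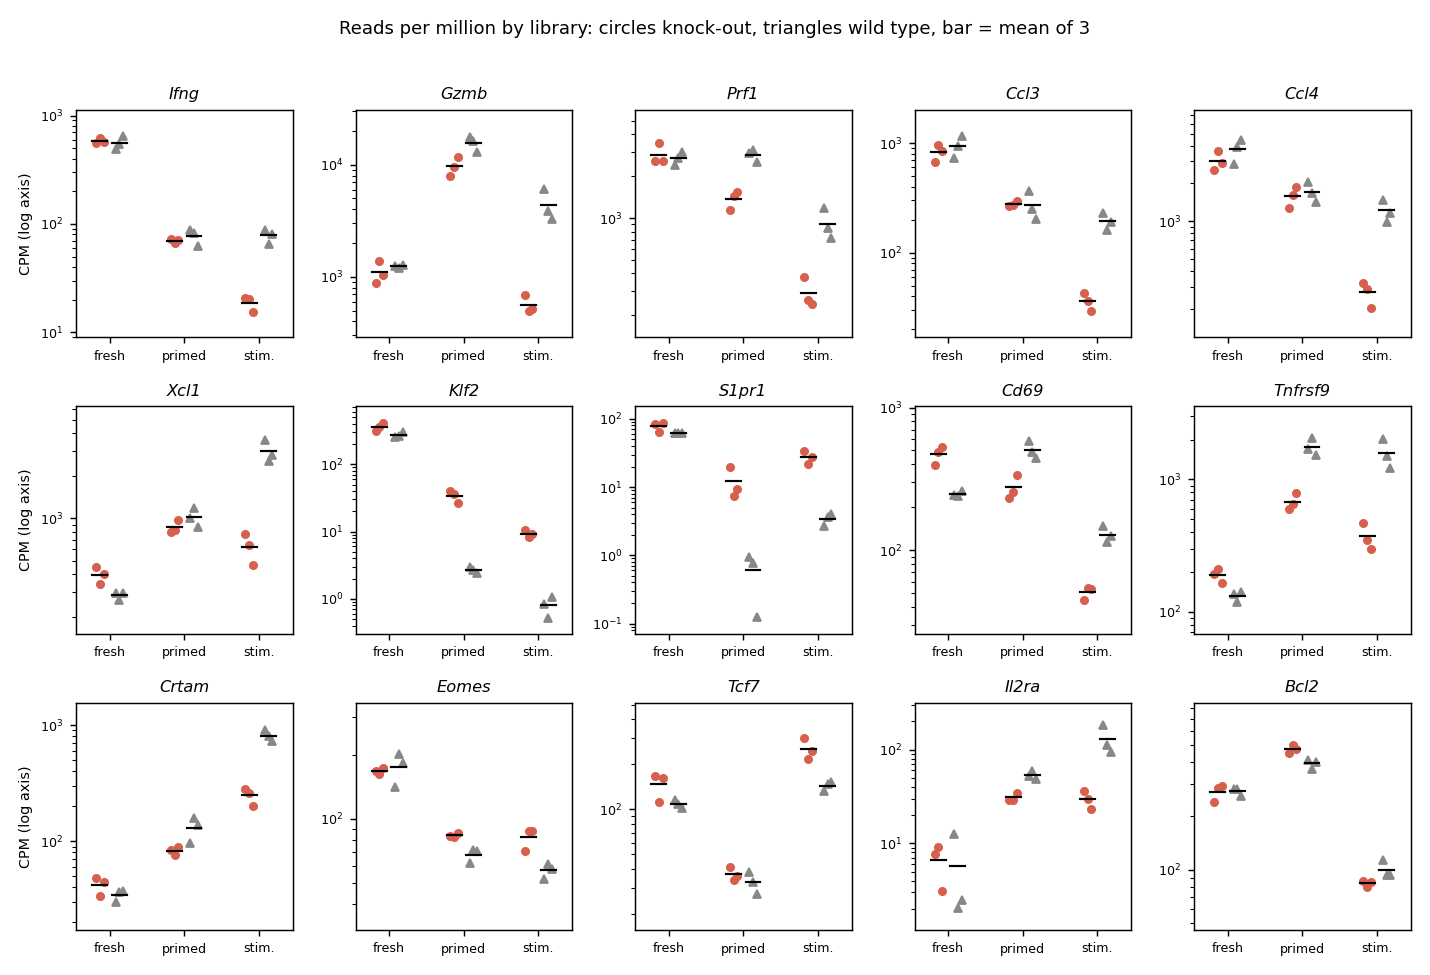
CPM on a log axis for 15 effector, activation, trafficking and survival genes in fresh, primed and stimulated cells; circles are knock-out libraries, triangles wild-type libraries and bars the mean of 3. Knock-out Ifng stands at 15.5 to 20.6 CPM after stimulation and Cd69 at 45.1 to 54.2, below every fresh knock-out library, while Tcf7 dips in primed cells and ends at 218 to 298 CPM.

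Receptor genes of the NK lineage were lower after the culture. Of 47 tested receptor and adaptor genes 31 fell and 8 rose (median -0.87), beside 20.0% and 20.6% of all genes. Ncr1, which encodes NKp46 and whose locus drives the Cre, fell from 1092, 1175 and 970.1 CPM to 112, 133 and 115 (net -3.17, SE 0.16, adjusted p = 2.9e-11). Klrk1, the gene of the stimulated receptor (GRCm38, chromosome 6, 129610323 to 129623864), moved little: 1453, 1364 and 1359 CPM in fresh and 994, 1170.2 and 1104 in stimulated cells, a net change of -0.35 (SE 0.09, adjusted p = 0.00536). Without fresh replicate 1 its adjusted p was 0.0627, and in the 6 libraries fitted alone it was 0.0507. Its adaptor gene Hcst fell by 1.47, with a priming step of -1.10 and a stimulation step of -0.36 that was not called. Fcgr3, an activating receptor gene for antibody-coated targets, was at 77.0, 75.1 and 80.0 CPM in fresh and 195, 177 and 167 in stimulated cells (net 1.22, adjusted p = 2.3e-08). Its primed mean was 0.93 times the fresh mean, the priming change of -0.10 not being called, so the rise lay in the stimulation step. Havcr2, the gene of the inhibitory receptor TIM-3, rose from 12 reads in all fresh libraries to 6.96, 4.87 and 3.38 CPM.

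The transcription factors that define mature NK cells were lower and some factors of less differentiated lymphocytes were higher. Eomes fell from 167, 162 and 173 CPM to 70.7, 87.7 and 87.6 (net -1.03, adjusted p = 2.6e-06) and Tbx21, encoding T-bet, from 60.0, 58.7 and 57.1 to 18.8, 17.9 and 19.4 (net -1.65, adjusted p = 1e-08). Both fell in priming and had a stimulation step of -0.03 that was not called. Bhlhe40 fell by 3.07. Tcf7, encoding TCF-1, was at 168, 112 and 162 CPM in fresh, 41.3, 34.0 and 35.9 in primed and 298, 218 and 245 in stimulated cells, ending above the fresh level (net 0.78, SE 0.16, adjusted p = 0.00056). Bcl6, a repressor, took the same course, from 10.4, 9.64 and 9.49 CPM through 1.54, 3.77 and 3.66 to 43.2, 43.4 and 46.0 (net 2.17, adjusted p = 2.3e-07). Kit, a receptor gene of immature lymphocytes, rose by 1.85, with a priming step of -0.03 that was not called. In the list of 34 NK transcription factors and maturation genes 18 fell and 5 rose, beside 20.0% and 20.6% of all genes.

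Of the egress and homing genes 15 of 24 fell and 5 rose, beside 20.0% and 20.6% of all genes. Klf2 was at 310.3, 363 and 418 CPM in fresh, 39.6, 36.5 and 26.3 in primed and 10.5, 8.33 and 9.05 in stimulated cells (net -5.29, SE 0.19, adjusted p = 9.9e-13), falling in both steps. S1pr1 fell in priming and regained part of its level, at 84.8, 63.5 and 87.7, then 19.8, 7.32 and 9.53, then 33.6, 21.8 and 27.6 CPM. S1pr5, the sphingosine phosphate receptor gene of mature NK cells, fell by 2.81 and Cx3cr1, a chemokine receptor gene, changed by -1.94. Itga1, encoding the tissue-residency integrin CD49a, rose from 7.39, 9.54 and 5.33 CPM to 83.8, 113 and 113 (net 3.81, adjusted p = 1.2e-06) and Cxcr6 from 47.2, 40.7 and 13.1 to 192, 202 and 173 (net 2.49, adjusted p = 0.00148). Both are also ILC1 markers, of which 3 of 9 were called higher and 1 lower. Fresh replicate 3 was lower for both genes than the other fresh libraries.

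Genes of IL-15 and STAT5 signalling fell in 18 and rose in 5 of 34 members, beside 20.0% and 20.6% of all genes. Cish, a STAT5 target that restrains the IL-15 receptor, was at 9.66, 15.3 and 14.4 CPM in fresh, 35.2, 51.7 and 52.7 in primed and 4.40, 4.16 and 3.55 in stimulated cells, so it fell below the fresh level (net -1.70, adjusted p = 0.00196). Bcl2, a survival gene, followed the same path, from 238, 286 and 292 CPM through 452, 496 and 473 to 86.1, 79.7 and 85.2 (net -1.70, SE 0.10, adjusted p = 4.1e-10). Il2ra, the high-affinity IL-2 receptor chain, kept its priming rise, at 7.71, 9.09 and 3.13 CPM in fresh and 35.9, 29.6 and 23.1 in stimulated cells, and Il21r did so too (net 1.48). IL-15 was present until the wash, and loss of the cytokine cannot be told apart from NKG2D for the genes that fell in the stimulation step. Among BCL2 family and p53 target genes, a list without Bcl2, 17 of 24 rose and 3 fell, beside 20.6% and 20.0% of all genes. Bcl2l11, encoding the death-promoting protein BIM, rose by 1.55, from 96.9, 86.3 and 91.6 CPM to 288, 274 and 244, whereas the survival gene Bcl2l1 fell by 2.37, from 179, 211 and 229 to 47.4, 35.2 and 37.3.

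Cell cycle genes stayed high after stimulation. Of 45 tested members 39 were higher and 2 lower than in fresh cells, with a median of 2.89, beside 20.6% and 20.0% of all genes. Mki67, the proliferation marker gene, went from 8.89, 4.85 and 5.61 CPM to 77.5, 98.6 and 92.3 in primed and 112, 116 and 148 in stimulated cells (net 4.28, SE 0.22, adjusted p = 5.2e-11). The mitotic genes Bub1b and Kif2c rose by 5.41 and 7.12, and E2f8, a cell cycle repressor gene, by 5.28. The 2 members that fell were D-type cyclins, which link growth signals to the cycle: Ccnd2 had a priming change of 0.01 and fell from 911, 1059 and 930.3 CPM in fresh to 189.9, 181 and 179.9 in stimulated cells (net -2.40), and Ccnd3 fell by 1.76. The short E2F elements TTTGGCGC and TTTCGCGC were searched on both strands in promoters of 300 bases. A gene counted if any of its promoters held the element. They were found for 6 (15%) and 4 (10%) of the 40 list genes whose promoters could be read. Among 27025 genes with such promoters the shares were 0.585% and 0.374%.

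Cholesterol synthesis genes lost part of their rise and stayed well above the fresh level. All 26 tested members were called, 23 higher and 3 lower, beside 20.6% and 20.0% of all genes. Of the 26, 23 were part returns, meaning that the 2 steps were called with opposite signs and the net change kept the sign of priming, a class that held 5.15% of all genes. Fdps was at 16.9, 16.0 and 15.3 CPM in fresh, 669.5, 818 and 859.9 in primed and 237, 218 and 199 in stimulated cells, a 13.6-fold net rise (log2 3.76, SE 0.14, adjusted p = 1.2e-12). Idi1 and Hmgcs1, which act earlier in the mevalonate pathway, rose by 3.75 and 2.31. The 3 that fell included the sterol exporter genes Abcg1, from 540.4, 505 and 494 CPM to 148, 200.2 and 164, and Abca1, from 12.0, 15.5 and 16.2 to 0.419, 0 and 0.326 CPM. The sterol element core TCACNCCAC was found in a promoter of 1 of 18 list genes (5.56%) and of 1.44% of all genes whose promoters could be read.

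Fatty acid genes split. In the synthesis and desaturation list 8 of 19 rose and 2 fell, beside 20.6% and 20.0% of all genes. Of the 2 that fell (Acaca and Acsl5) 1 was called without fresh replicate 1 or stimulated replicate 3 and 0 without fresh replicate 2. The desaturase genes Fads2 (8 reads in all fresh libraries, then 20.7, 12.8 and 14.8 CPM) and Fads1 (0.635, 1.55 and 2.20, then 25.5, 22.6 and 24.2 CPM) stayed high. Fasn, encoding fatty acid synthase, rose in priming from 57.5, 60.2 and 61.9 CPM to 206, 269 and 278 and was at 54.0, 29.8 and 45.5 after stimulation. Its net change of -0.47 (adjusted p = 0.0711) was not called, but without stimulated replicate 1 it was -0.66 with an adjusted p of 0.0215. Acss2, the enzyme gene that makes acetyl-CoA from acetate, was at 45.4, 34.4 and 32.6 CPM in fresh and 15.4, 39.2 and 30.9 in stimulated cells (net -0.40, 95% interval -1.19 to 0.40, adjusted p = 0.432). Asns, the asparagine synthetase gene of the amino acid stress response, had 5 reads in all fresh libraries and 12.8, 13.5 and 14.6 CPM in the stimulated ones.

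Many genes that priming moved were back at the fresh level after stimulation. A gene was classed as returned when the priming step and the stimulation step were both called with opposite signs, the net change was not called, and the 90% interval of the net change lay inside a 2-fold change either way. Because the primed libraries enter both steps, an error in them moves the steps in opposite directions. By this rule 1512 genes returned (10.2% of those tested): 652 that priming raised (4.39%) and 860 that it lowered (5.79%). Of the 3425 genes that priming raised, 19.0% returned, 12.3% came back in part, 5.66% went past the fresh level, 37.4% kept the change, 6.34% moved further and 19.2% fell in none of these classes. Of the 3813 that it lowered, these shares were 22.6%, 9.02%, 4.35%, 34.6%, 6.95% and 22.5%. At the edge of the rule, Kctd1 was inside with a 90% interval from -0.998 to 0.40 and Smyd2 was outside with one from -0.14 to 1.00. In all, 385 genes, Smyd2 among them, had opposite called steps and no called net change but an interval that reached outside the 2-fold margin. Without primed replicate 1 the rule found 1315 genes, of which 1107 were among the 1512, that is 73.2% of these.

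In the ribosome biogenesis list 28 of 35 members had returned to the fresh level or fallen past it. Its members process ribosomal RNA and assemble ribosomal subunits, and many are known targets of Myc, which binds the E-box CACGTG. The promoters of 3 genes are shown, the returned list members with an E-box that had the smallest p in the priming step; each runs from 250 bases before to 50 bases after the gene's start on the gene's own strand, 5′ to 3′, from RefSeq (GRCm38.p6), with the E-box in capitals. They lie at chr8:106893390-106893689 on the plus strand for Utp4, at chr6:125131633-125131932 on the plus strand for Nop2 and at chr7:45830740-45831039 on the minus strand for Grwd1.
Utp4: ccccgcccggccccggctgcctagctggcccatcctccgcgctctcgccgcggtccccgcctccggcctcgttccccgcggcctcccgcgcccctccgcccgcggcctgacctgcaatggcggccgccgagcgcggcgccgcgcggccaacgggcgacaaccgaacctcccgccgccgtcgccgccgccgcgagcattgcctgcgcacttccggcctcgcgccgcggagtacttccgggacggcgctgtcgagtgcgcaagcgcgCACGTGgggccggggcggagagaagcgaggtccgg
Nop2: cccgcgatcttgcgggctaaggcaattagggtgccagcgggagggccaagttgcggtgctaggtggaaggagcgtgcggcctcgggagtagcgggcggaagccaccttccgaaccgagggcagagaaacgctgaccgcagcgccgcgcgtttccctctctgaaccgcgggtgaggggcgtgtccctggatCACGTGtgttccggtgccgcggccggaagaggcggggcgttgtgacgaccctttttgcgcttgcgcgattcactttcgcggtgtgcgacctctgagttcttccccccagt
Grwd1: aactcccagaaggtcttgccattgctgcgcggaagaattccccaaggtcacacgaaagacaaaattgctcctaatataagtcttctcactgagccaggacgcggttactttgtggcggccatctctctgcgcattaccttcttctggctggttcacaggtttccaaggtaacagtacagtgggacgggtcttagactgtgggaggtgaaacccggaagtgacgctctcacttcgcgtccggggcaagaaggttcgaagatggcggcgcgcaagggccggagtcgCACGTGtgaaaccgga

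Read on both strands, this E-box lay in a promoter of 10 of the 30 list genes whose promoters could be read (33.3%). Among 27025 genes with promoters of the same length the share was 8.09%. A gene counted if any of its promoters held the E-box, and this is a description and not evidence of binding. Utp4, a small-subunit processing factor, was at 27.7, 29.6 and 27.7 CPM in fresh, 67.8, 65.9 and 70.0 in primed and 33.8, 30.1 and 30.4 in stimulated cells. Nop2, an rRNA methyltransferase gene, was at 33.6, 31.5 and 29.6, then 65.5, 72.3 and 89.6, then 30.2, 23.5 and 22.3 CPM. Its net change of -0.32 was called without stimulated replicate 1 (-0.46, adjusted p = 0.0239), which ends its return. Grwd1, a ribosome assembly gene, was at 9.79, 11.9 and 8.34, then 33.1, 39.8 and 51.1, then 12.0, 8.75 and 5.34 CPM. In each of the 3 genes the primed libraries lay above all other knock-out libraries. The rule favours this, and it held for 602 of the 652 genes that priming raised and that returned. In priming 31 of the 35 list members rose and 0 fell, beside 23% and 25.7% of all genes, and in the stimulation step all 35 fell, beside 16.9% of all genes (18.4% rose). Net, 13 had returned, 15 were past fresh, 3 were part returns and 4 fell in the stimulation step without a called priming step. Among all genes 10.2% had returned and 2.42% were past fresh. With limma voom 5 in place of 13 list members had returned. Compared with fresh cells 19 were lower and 3 higher, with a median of -0.44, beside 20.0% and 20.6% of all genes. The 3 were Ncl, Npm1 and Wdr12. Without fresh replicate 3 the count higher was 1, and Wdr12 went from a net change of 0.41 to 0.32 (adjusted p = 0.0799).

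Myc itself rose in priming from 97.3, 93.4 and 107 CPM to 245, 225 and 267 and fell to 18.8, 8.65 and 14.3, past the fresh level (net -2.83, SE 0.23, adjusted p = 2.7e-08). The net falls of smallest p in the list were those of Ltv1, an export factor of the small subunit, at 28.2, 29.5 and 24.3 against 8.51, 7.86 and 9.13 CPM (net -1.68, adjusted p = 8.9e-09), and of the helicase gene Ddx18 (net -1.05). Npm1, encoding the abundant nucleolar chaperone nucleophosmin, stayed high, at 710.5, 689.6 and 741 CPM in fresh and 1585, 1689 and 1636 in stimulated cells (net 1.20, adjusted p = 2.3e-08). Npm1 has processed pseudogenes, and the division of reads between such copies is not known.

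**Figure D3:**
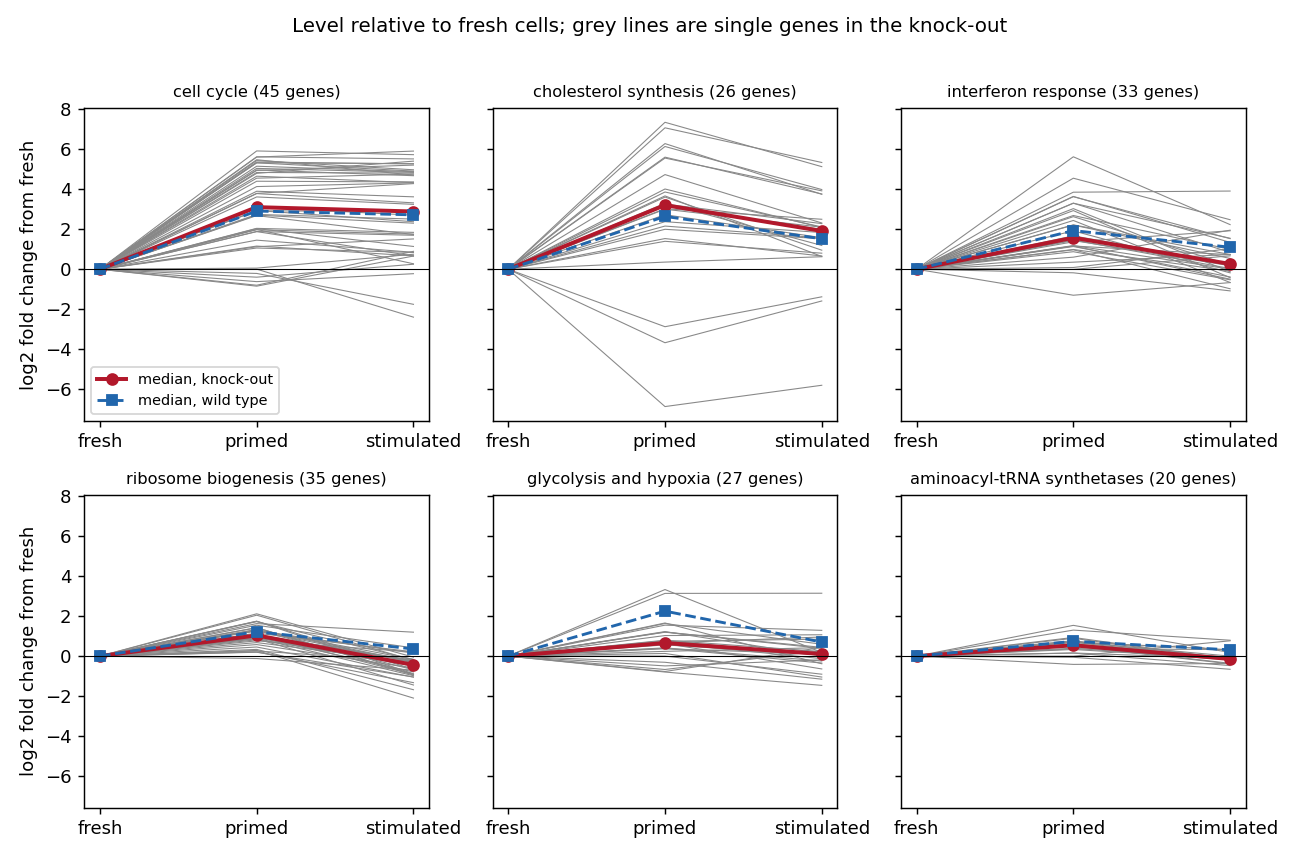
Level relative to fresh cells on the log2 scale for the members of 6 gene lists; grey lines are single genes in the knock-out, red circles the knock-out median and blue squares the wild-type median. The ribosome biogenesis median goes from 1.04 in primed to -0.44 in stimulated knock-out cells, while that of cell cycle genes stays at 3.11 and 2.89.

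Interferon response genes made a larger excursion, from which many came back fully or in part. In priming 29 of 33 members rose, beside 23% of all genes, and in stimulation 26 fell, beside 16.9%. Of the 33 members 10 returned and 11 were part returns, beside 10.2% and 5.15% of all genes. Compared with fresh cells 16 were still higher and 5 lower, beside 20.6% and 20.0% of all genes. The count lower was 3 without fresh replicate 1, fresh replicate 2 or stimulated replicate 3. Usp18, a brake on interferon signalling, was at 37.0, 44.8 and 33.5 CPM in fresh, 182, 260.1 and 501 in primed and 31.2, 26.8 and 47.7 in stimulated cells (net -0.12, 95% interval -0.81 to 0.56). Ifit1 went from 15.8, 12.9 and 15.4 through 46.6, 79.1 and 147 to 14.1, 15.2 and 22.1 CPM, and counted as returned in 12 of 17 other settings. Primed replicate 3 was the highest for both. Isg20, an antiviral exonuclease gene, kept its rise, at 3.54, 6.69 and 4.77 against 88.9, 63.2 and 73.0 CPM (net 3.91, adjusted p = 2.5e-08), and Stat2 rose by 1.92. Samhd1 fell by 1.08, with stimulation, and Zbp1 by 0.98 after a rise in priming.

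Glycolysis and hypoxia genes returned in 9 of 27 members, beside 10.2% of all genes. Compared with fresh cells 6 were higher and 5 lower, near the shares of all genes (20.6% and 20.0%). Without primed replicate 3 the number returned was 5, and without stimulated replicate 1 the number higher was 3. Aldoc, an aldolase gene, rose from 1.59, 3.25 and 1.71 CPM to 22.7, 17.4 and 17.0 (net 3.15, adjusted p = 1.8e-07). Pfkp, the platelet-type phosphofructokinase gene, fell by 1.46 and Slc2a1, the glucose transporter GLUT1, from 81.8, 86.5 and 86.2 CPM to 44.1, 29.2 and 41.0 (net -1.15, adjusted p = 3.3e-05). Pdk1 was at 3.90, 4.15 and 4.59 against 3.02, 4.49 and 3.18 CPM and was not called. Of 20 aminoacyl-tRNA synthetases 9 returned after 13 rose in priming and 14 fell in stimulation.

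Among single genes, the largest excursion upward that came back was Shmt1, the cytosolic serine hydroxymethyltransferase of one-carbon metabolism. It was at 2.99, 1.70 and 2.14 CPM in fresh, 38.8, 33.5 and 47.0 in primed and 3.69, 1.92 and 2.85 in stimulated cells, a priming rise of 4.12 and a net change of 0.31 (95% interval -0.23 to 0.85). Gbp6, an interferon-inducible GTPase gene, went from 19.2, 23.5 and 16.0 through 143, 137 and 213 to 18.5, 15.4 and 27.5 CPM (net 0.07). Gpatch4 went from 7.30, 6.99 and 6.76 through 36.1, 38.3 and 39.6 to 8.77, 5.52 and 6.32 CPM (net -0.03). Ppa1, a pyrophosphatase gene, had a net change of 0.41 (adjusted p = 0.151), which without fresh replicate 1 was 0.65 with an adjusted p of 0.0467.

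The largest excursions downward included genes of mitophagy and signalling. Dhrs3, a retinal reductase gene, was at 125, 142 and 170.4 CPM in fresh, 28.0, 28.2 and 21.0 in primed and 170.2, 149.6 and 138 in stimulated cells (priming -2.50, net 0.07). Pink1, the kinase gene that marks damaged mitochondria for removal, went from 22.4, 23.5 and 28.3 through 4.02, 5.85 and 5.82 to 30.0, 26.6 and 26.4 CPM (net 0.16). Hivep2, a zinc finger factor gene, Qrfp, a neuropeptide gene, and Klc4, a kinesin light chain gene, had priming changes of -2.07, -2.05 and -2.04 and net changes of -0.24, -0.08 and 0.21. Calcoco1, an autophagy receptor gene, is the least settled of them: its net change was 0.32 (adjusted p = 0.0553) and it counted as returned in 8 of 17 other settings, its call passing without fresh replicate 1 (adjusted p = 0.0183) or stimulated replicate 2 (0.0451). Pink1, Dhrs3, Hivep2, Qrfp, Klc4, Gbp6, Usp18 and Gpatch4 were returned in all 17 settings and Shmt1 in 16.

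**Figure D4:**
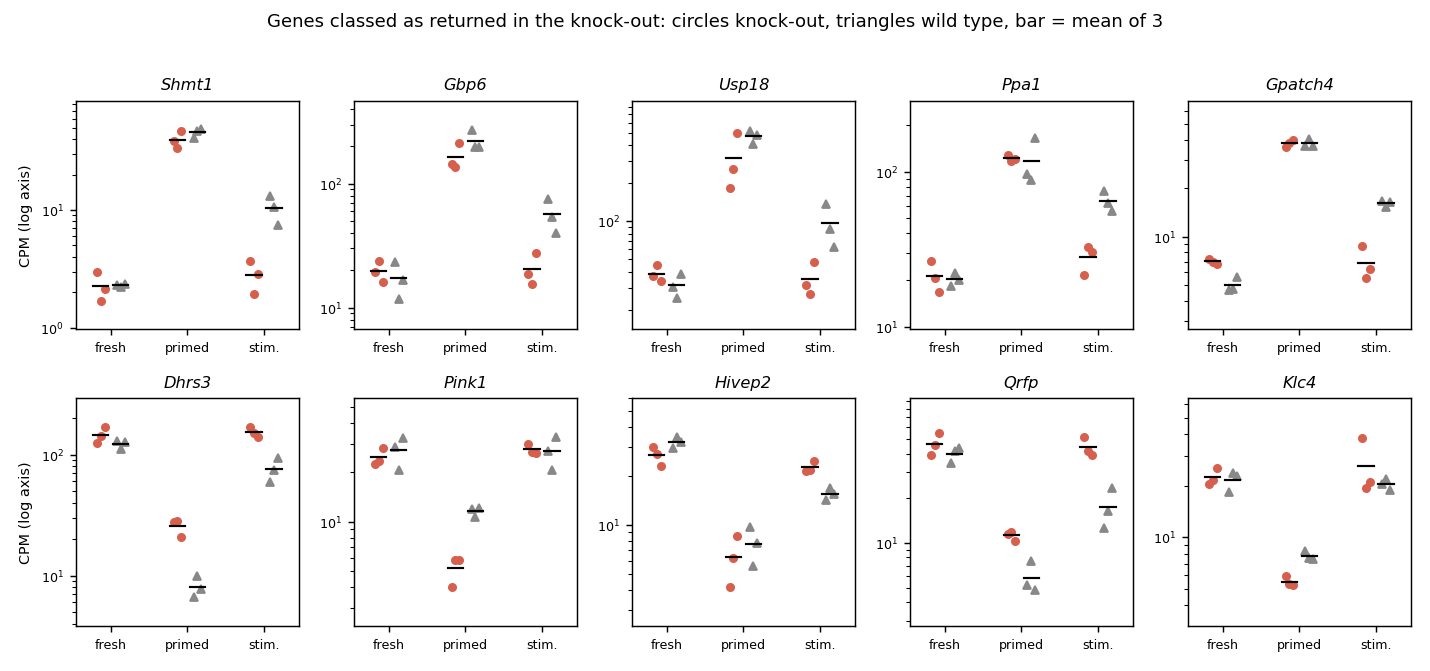
CPM on a log axis for 10 genes classed as returned in the knock-out, in fresh, primed and stimulated cells; circles are knock-out libraries, triangles wild-type libraries and bars the mean of 3. In the knock-out the fresh and stimulated circles stand at similar heights, 1.70 to 2.99 and 1.92 to 3.69 CPM for Shmt1, while wild-type Shmt1 ends at 7.54 to 13.1.

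A further 360 genes (2.42%) went past the fresh level, 194 that priming raised (1.31%) and 166 that it lowered (1.12%). Besides Bcl6, the largest ending higher were Ldlrad4, which dampens TGF-beta signalling, at 7.53, 8.24 and 10.3, then 0.402, 3.28 and 1.83, then 56.0, 37.4 and 40.7 CPM (net 2.36), Qpct, a glutaminyl cyclase gene (net 2.14), and Acsbg1, an acyl-CoA synthetase gene (net 1.99). Besides Myc, those ending lower included Serpina3f, a protease inhibitor gene, at 43.9, 44.2 and 25.5, then 160.3, 139.8 and 187, then 4.95, 3.04 and 5.14 CPM (net -3.11), Egr1 (net -2.66) and the interferon-inducible GTPase gene Gvin1 (net -2.13). Gvin1 has near copies, so its value is uncertain in the same way as that of Npm1.

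In wild-type cells taken through the same conditions 7800 genes (52.5%) were called net, 26.3% higher and 26.1% lower, and the same rule found 656 returned genes (4.41%). Of the 652 knock-out genes that went up and returned, 103 (15.8%) were also returned in wild type, which is 31.3% of the 329 wild-type genes of that kind (2.21% of those tested). Of the 860 that went down, 169 (19.7%) were, or 51.7% of 327 (2.20%). Among the 652, wild-type priming was called in the same direction for 516, the wild-type stimulation step was called in the opposite direction for 289, beside 26.5% of all genes higher in wild-type priming and 10.7% lower in its stimulation step, and the wild-type net change was called for 374. The rule asks for a small knock-out net change, so the knock-out median of -0.01 is set by the choice of genes. The wild-type median was 0.43. The difference between genotypes was called for 231 of the 652 (35.4%), 219 of them lower in the knock-out. Among all genes it was called for 16.2%, 8.48% lower. These shares too rest on genes chosen by their knock-out values. For the 860 the counts for wild-type priming, stimulation and net change were 556 (27.2% of all genes lower in priming), 328 (9.20% higher in stimulation) and 382. Their medians were -0.01 in the knock-out, again set by the rule, and -0.18 in wild type. A difference was called for 122 (14.2%), 98 of them higher in the knock-out, beside 7.74% higher among all genes. For most returned genes no genotype difference was thus called, which does not show that the genotypes changed equally. The overlap of the classes is not a test of a difference. Pink1, Klc4 and Calcoco1 returned in both genotypes, whereas the other 9 named genes were part returns in wild type: Shmt1, Gbp6, Usp18, Ifit1, Ppa1 and Gpatch4 ended higher than fresh there, by 2.19, 1.71, 1.62, 1.25, 1.68 and 1.69, and Dhrs3, Hivep2 and Qrfp lower, by log2 changes of -0.70, -1.05 and -1.19. The genotype difference itself was not called for Ifit1 (adjusted p = 0.221) and Hivep2 (adjusted p = 0.0732) and was called for the other 7, for Dhrs3 in only 8 of 19 other settings.

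The net change itself differed between genotypes for 2411 genes (16.2%), 1150 higher (7.74%) and 1261 lower (8.48%) in the knock-out. These counts depend on single libraries: the count higher was 757 without fresh knock-out replicate 3, 762 and 577 without stimulated knock-out replicates 2 and 3, and 695 without fresh wild-type replicate 2, and the count lower was 817 without fresh knock-out replicate 3. Of the 6046 genes called net in the knock-out, 1306 had a called difference. For 169 genes with a called difference the net change was called in opposite directions in the 2 genotypes.

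**Figure D5:**
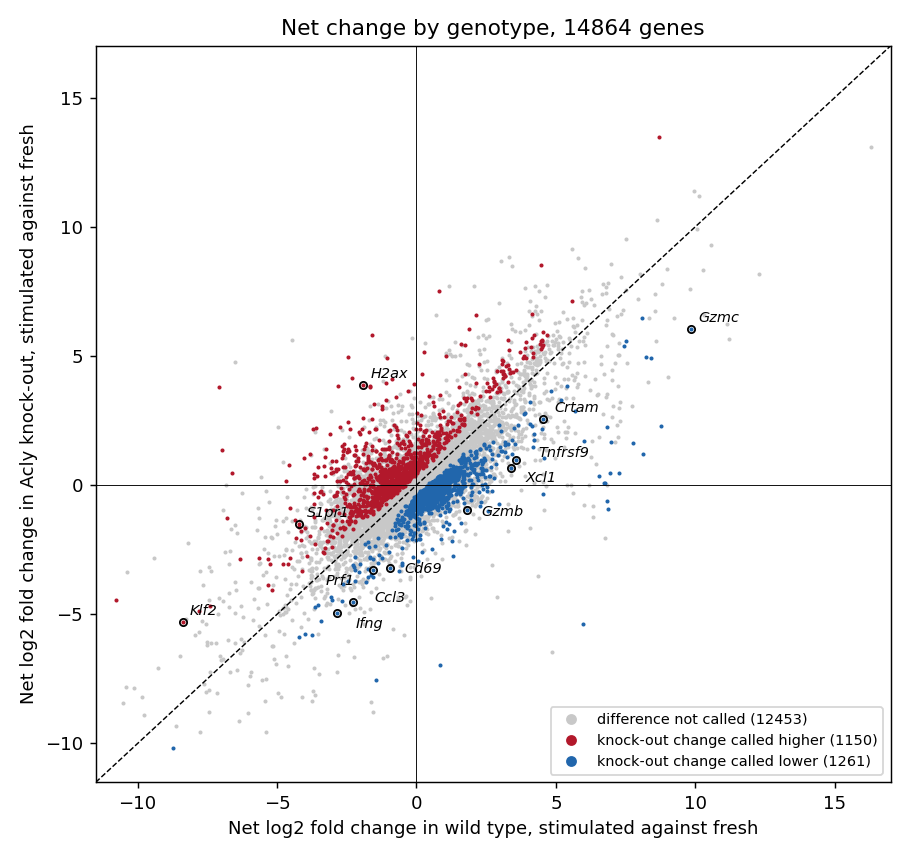
Net log2 change from fresh to stimulated cells for 14864 genes, knock-out on the y axis and wild type on the x axis; red points have a called difference higher in the knock-out (1150), blue points one lower (1261), grey points none, and the dashed line marks equal change. Ifng, Ccl3, Cd69 and Gzmb lie below the line, Klf2 and S1pr1 above it.

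Some effector and activation genes ended lower in the knock-out relative to their own fresh level. Beside 8.48% lower and 7.74% higher among all genes, differences were lower for 9 and higher for 3 of 28 granule and death ligand genes, lower for 9 and higher for 0 of 22 cytokine and chemokine genes, and lower for 14 and higher for 4 of 48 early activation genes. Gzmb was net lower in the knock-out and higher in wild type (-0.97 against 1.82, difference -2.79, SE 0.31, adjusted p = 4.4e-05). For Ifng the changes were -4.96 and -2.84 (difference -2.13, SE 0.20, adjusted p = 1.7e-05), and stimulated wild-type cells held 88.2, 65.9 and 81.3 CPM where knock-out cells held 20.6, 20.1 and 15.5. Xcl1 rose by 0.66 and 3.39 (difference -2.73, adjusted p = 1.7e-05), Tnfrsf9 by 0.96 and 3.58 (-2.62, adjusted p = 2.4e-05) and Gzmc by 6.03 and 9.85 (-3.82, adjusted p = 0.00014). Cd69 fell by 3.20 in the knock-out and by 0.94 in wild type (-2.26, adjusted p = 1.7e-05). The other genes of largest lower difference were Lilrb4a, an inhibitory receptor gene (-1.46 against 1.61; the knock-out change had an adjusted p of 0.0508 without fresh replicate 1), Cd63, a granule membrane protein gene (1.49 against 4.19), and Cish (-1.70 against 1.10).

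In the egress and homing list 8 of 24 differences were higher in the knock-out, 2 lower and 14 not called, beside 7.74% higher and 8.48% lower among all genes. Klf2 changed by -5.29 there and by -8.38 in wild type (difference 3.09, SE 0.27, adjusted p = 1.7e-05), ending at 10.5, 8.33 and 9.05 CPM against 0.828, 0.525 and 1.08. For S1pr1 the changes were -1.51 and -4.19 (difference 2.69, adjusted p = 0.00194). In the ribosome biogenesis list 28 of 35 members had a lower difference and 0 a higher one, beside 8.48% and 7.74% of all genes. In the knock-out 19 were net lower, beside 20.0% of all genes. In wild type 2 were net lower and 16 higher, beside 26.1% and 26.3% of all genes. By the rule for return, 13 had returned in the knock-out and 14 in wild type, beside 10.2% and 4.41% of all genes, so return was not particular to the knock-out. Proteasome genes were net higher in 28 of 30 in wild type, beside 26.3% of all genes. In the knock-out 7 of the 30 were, near the share of all genes (20.6%). Of the proteasome differences 20 were lower, and glycolysis genes had 13 of 27 lower. The glycolysis count fell to between 6 and 8 when fresh knock-out replicate 1, 2 or 3, stimulated knock-out replicate 2 or 3, fresh wild-type replicate 1 or 2 or stimulated wild-type replicate 2 was left out. Cholesterol synthesis genes had 9 differences higher and 1 lower of 26.

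The genes of largest higher difference were erratic between libraries. H2ax, Maf1, Aldh2, Pdia3, Rps2 and Creg1 together summed to 547, 249 and 253 CPM in fresh, 1638, 711 and 423 in primed and 333, 1999 and 2314 in stimulated knock-out libraries, and to 1654, 1596 and 1295, then 329, 339.8 and 2986, then 387, 339.7 and 356 in wild type. Stimulated knock-out replicate 1 thus stood with the stimulated wild-type libraries, and primed wild-type replicate 3 stood far above its 2 partners. For Rps2, encoding a ribosomal protein, the stimulated knock-out values were 208, 1027 and 1244 CPM, and for H2ax, a histone gene, they were 9.90, 42.9 and 85.5. Among 7995 genes whose mean log2 CPM reached 3, stimulated knock-out replicate 1 was at least 4-fold below both partners for 32, primed knock-out replicate 1, which every returned call uses, for 18, and the other knock-out libraries for no more than 2; primed wild-type replicate 3 was at least 4-fold above both partners for 106. The cause of this pattern was not tested. The knock-out change alone was called for H2ax (3.87), Rps2 (2.94) and Creg1 (2.17) and not for Maf1 (1.39), Pdia3 (1.53) and Aldh2 (0.70), and without stimulated replicate 1 Maf1 and Pdia3 passed (1.86 and 2.05, adjusted p = 0.0383 and 0.0431).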

How the data were processed

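RNA from 18 samples of sorted mouse NK cells was sequenced, 3 in each of 6 groups, after library preparation with a SMARTer kit, per the labels' protocols. The submitters' processing notes name bcl2fastq, DRAGEN, edgeR and the mm10 build, without versions. The authors deposited a table of estimated counts per gene (55774 entries, 55487 gene identifiers, 30.0% of values not whole), which was rounded to whole numbers here. Whole counts had been assumed when the tests were designed. How reads shared between gene copies were divided, and whether strand was used, is not stated in the labels or headers.

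Tests were run in R 4.3.3 with edgeR 4.0.16 (quasi-likelihood test, TMM, its default expression filter, 1 mean per group over all 18 libraries) on 14864 genes, with Benjamini-Hochberg adjustment over all of them and a threshold of 0.05. Every adjusted p in the text is from this fit unless another fit is named. Samples were grouped by title. Totals were 14.8M to 34.4M reads. The code was tested on simulated data. Alternatives used DESeq2 1.42.0, limma 3.58.1 (voom), other filters and fits, and each library left out. Leaving out wild-type libraries, and the alternatives for each step, were added after seeing the data. Members and gene lists were chosen with earlier results of these data known. Named genes are a subset of the largest net changes, of each list's 2 risen and 2 fallen genes with the lowest p, of a fixed set of NK genes, and of the largest returned, past-fresh and genotype differences among genes whose mean log2 CPM reached 3. Promoters were read from a RefSeq table with Python 3.11.15. A gene of the fixed set is not reported here.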

Additional observations from a re-analysis of the deposited data

Results flagged for a closer look

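For 61 of the 107 named genes, the net change from fresh to stimulated cells differed between knock-out and wild type by the test of the difference itself. The test was that of edgeR, adjusted over 14864 genes, of which 16.2% were called. Some genes were named because this difference was large and others because the knock-out net change was small. The share of named genes called is thus partly set by that choice. The values below are the knock-out net log2 change minus that of wild type.

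Among effector, cytokine and surface genes the knock-out value was lower for Gzmc by -3.82, Csf2 by -3.58, Havcr2 by -3.49, Lilrb4a by -3.06, Cish by -2.80, Gzmb by -2.79, Xcl1 by -2.73, Cd63 by -2.70, Tnfrsf9 by -2.62 and Il2ra by -2.32. It was also lower for Cd69 by -2.26, Ccl3 by -2.23, Ifng by -2.13, Crtam by -2.0, Ccl4 by -1.87, Prf1 by -1.73, Spp1 by -1.62, Il21r by -1.51, Ncr1 by -0.93 and Fasl by -0.45. Immediate-early, growth and ribosome genes differed downward as well, Fos by -1.46, Myc by -1.17, Egr2 by -1.11, Ltv1 by -1.73, Grwd1 by -1.33, Ddx18 by -0.83, Wdr12 by -0.82, Nop2 by -0.67, Npm1 by -0.47 and Ccnd2 by -0.71. Genes that returned, went past fresh or exported sterols and had a lower value were Serpina3f by -2.60, Abca1 by -2.05, Shmt1 by -1.88, Usp18 by -1.75, Gpatch4 by -1.72, Gbp6 by -1.64 and Ppa1 by -1.27.

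The knock-out value was higher for egress, maturation and granule genes, Klf2 by 3.09, Cma1 by 2.71, S1pr1 by 2.69, S1pr5 by 1.71, Gzmk by 1.38 and Eomes by 0.58. It was higher for metabolic and cell cycle genes, Acss2 by 2.49, Acly by 1.54, Fdps by 0.82, Idi1 by 0.79, Hmgcs1 by 0.60, Kif2c by 1.55, Ccnd3 by 1.27, Mki67 by 1.20 and E2f8 by 0.82, and for Qrfp by 1.11, Dhrs3 by 0.76 and Samhd1 by 0.46. The largest were H2ax by 5.77, Maf1 by 4.62, Aldh2 by 4.22, Pdia3 by 4.19, Rps2 by 4.18 and Creg1 by 4.13, the genes whose libraries stood apart.

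Of the 61 differences 43 stayed past the threshold in every alternative run. The 18 that missed it in at least 1 were those of Abca1, Ccnd2, Ccnd3, Dhrs3, E2f8, Eomes, Fasl, Fos, Grwd1, Havcr2, Hmgcs1, Il2ra, Kif2c, Myc, Nop2, Npm1, Pdia3 and Samhd1. No difference of these 61 genes changed sign in the alternatives run. Groups of 3 libraries are too small for a test of single outlying samples.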

How the results depend on the processing

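Counts over all genes kept within 1.5 times of their value in 154 of 164 comparisons with an alternative. With a 2-fold minimum the net counts were 1718 higher and 1352 lower, and among genes whose mean log2 CPM reached 3 the priming step had 2440 lower, fewer genes being tested in that setting. With limma voom the genotype difference had 2904 higher and 2787 lower genes; the cause was not tested. Leaving out 1 library of the groups compared gave 2673 to 2894 net higher and 2350 to 2867 net lower, 3061 to 3572 and 3016 to 3619 for priming, and 2267 to 2748 and 2101 to 2462 for stimulation. Without primed knock-out replicate 1, 2 or 3, which share in the estimate of the spread, 6858, 6050 and 6094 genes were called net. Leaving out 1 library gave 573 to 675 returned genes of upward and 640 to 956 of downward first step, and 577 to 1484 higher and 817 to 1631 lower genotype differences. With a 1.5-fold margin 473 and 595 genes returned, and with no interval rule 843 and 1054. The returned set shared 71.0% (voom) to 96.4% (RLE size factors) of its genes with the other fits.

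The labels do not say that a replicate number marks a shared animal, and same-numbered fresh and stimulated knock-out deviations correlated at -0.46, -0.03 and -0.26 over 7995 genes, so the numbers were not used as pairs. The sex pattern does follow the number in each condition (female in knock-out replicate 2 and wild-type replicate 1), so shared animals remain possible. With the replicate block 2788 genes were net higher and 2740 lower, 5453 of the 5528 called being among the 6046.

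For the 107 named genes the net change kept its direction and side of the threshold in 1547 of 1597 refits, 28 became called, 4 lost the call and 18 changed sign. Those that changed sign were not called in either fit and lay near 0. Gpatch4 was 0.00524 with no filter, 0.00031 with a stricter filter, 0.00637 among genes whose mean log2 CPM reached 3, 0.00912 in the 6 libraries alone, and -0.24 to 0.11 with 1 library left out. With voom Usp18 was 0.0537 and Klc4 -0.0524. With 1 library left out Usp18 ranged from -0.37 to 0.0492, Klc4 from -0.152 to 0.40, Gbp6 from -0.166 to 0.25, Qrfp from -0.20 to 0.0877, Dhrs3 from -0.0125 to 0.23 and Grwd1 from -0.50 to 0.0883. Genes with few fresh reads, such as Ccl1 and Fads2, have folds limited by that depth.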
